A study of Mus musculus with 4 samples.

Results

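Regulators of the primitive streak and the early mesoderm were chosen by symbol, 10 in all: T (Brachyury), Eomes, Tbx6, Mixl1, Gsc, Evx1, Mesp1, Mesp2, Msgn1 and Kdr. They are 10 of the 28250 genes listed in the RNA-seq of TBV2 mouse embryonic stem cells (ESCs), and 9 of them passed the filter on low values (at least 0.001 in at least 2 libraries). Evx1 did not. TBV2 is a feeder-dependent line from 129/SvP mice, wild type or carrying an EGFP transgene in the study, with the variant used for these libraries not given in the sources used here. The libraries came from cells kept with LIF, the cytokine that holds ESCs undifferentiated. In the solvent group (2 libraries) the cells received the vehicle for 24 h, and in the MS-275 group (2 libraries) they received 5 µM MS-275 for 24 h. MS-275 (entinostat) inhibits the class I histone deacetylases. Nothing in the labels says that the libraries of a group came from separate cultures, so p-values measure the spread between these libraries, and the spread may be technical.

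The primitive streak is the furrow of the gastrulating embryo through which epiblast cells leave to become mesoderm and definitive endoderm. Nodal, Wnt and Fgf signals switch on the T-box factors T and Eomes and the homeobox genes Mixl1, Gsc and Evx1 there. The bHLH factors Mesp1, Mesp2 and Msgn1 and the T-box factor Tbx6 then act in the mesoderm that leaves the streak, and Kdr, the VEGF receptor, marks the part of it that gives blood, vessels and heart. ESCs resemble the epiblast before the streak forms and keep these genes low.

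The value columns and the alignments carry replicate labels that did not match. The values of each library were recomputed as alignments per exon length and per total alignments, and came within 1% for 15.1% to 16.9% of the genes compared when the alignments deposited under the other replicate of the same group were used, against 0.728% to 1.90% with any other file. Alignments are therefore given in the order of the values. Groups were not touched by this exchange. The totals ran from 9785619 to 23467935 alignments, with 0% of them repeated at the same position behind both replicate 1 values, and 53.2% and 54.4% behind the replicate 2 values. Counted at distinct positions, the depth was 9122347 to 10973569.

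Of the 10 regulators, T and Kdr were higher with MS-275, each by more than 6-fold in both replicate pairs, while the other 8 gave no such change. T rose by 1.89 on the log2 scale (SE 0.310) and Kdr by 1.79 (SE 0.307) when replicate number was a block in limma, with adjusted p = 0.000374 and 0.000529. Without the block no regulator passed in limma, with adjusted p = 0.152 for T and 0.141 for Kdr. The block takes differences between replicate numbers out of the spread, and without it the SE of T was 0.619. With so few libraries, the limma p-values with the block rest mostly on variance that limma borrows across genes. Eomes, Mesp1, Mesp2 and Mixl1 had positive log2 fold changes between 0.22 and 0.73, and Tbx6 had -0.34, none past the threshold with or without the block. Msgn1 and Evx1 were at the limit of detection in every library.

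The counts are read against the rest of the genes. limma without the block called 0 of the 9 regulators higher and 0 lower, where it called 0.00492% of the 20336 genes tested higher and 0% lower. Before adjustment, 2974 genes on the higher side and 564 on the lower side had a p under 0.05. With the block it called 2 of the 9 regulators higher and 0 lower, against 21% of genes higher and 6.46% lower. A rule without a test, a change of 2-fold or more within each pair, also picked T and Kdr as higher and 0 of the 10 as lower, where 11.5% of all listed genes were higher and 2.04% lower by this rule. The share of regulators called was thus close to that of genes in general, and the median log2 fold change of the 9, 0.35, stood beside 0.20 over all genes tested. Median-ratio scaling put the median of all genes at -0.01 and that of the 9 regulators at 0.13. Quantile normalization put them at -0.03 and -0.11, so the sign of the regulators' median depended on the scaling. With the block, median-ratio scaling called 16.6% of genes higher and 14.1% lower, and quantile normalization 14.4% and 14.6%. T and Kdr were called higher under both, and quantile normalization also called Tbx6 and Msgn1 lower. Values of 3 regulators (T, Mesp1 and Kdr) were higher in both MS-275 libraries than in either solvent library and those of 2 (Tbx6 and Msgn1) were lower, while 32.3% of the genes tested were separated upwards and 12% downwards. Msgn1 passed the filter through its solvent libraries alone. Its direction was therefore fixed in advance, here and in the quantile fit.

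**Figure D1:**
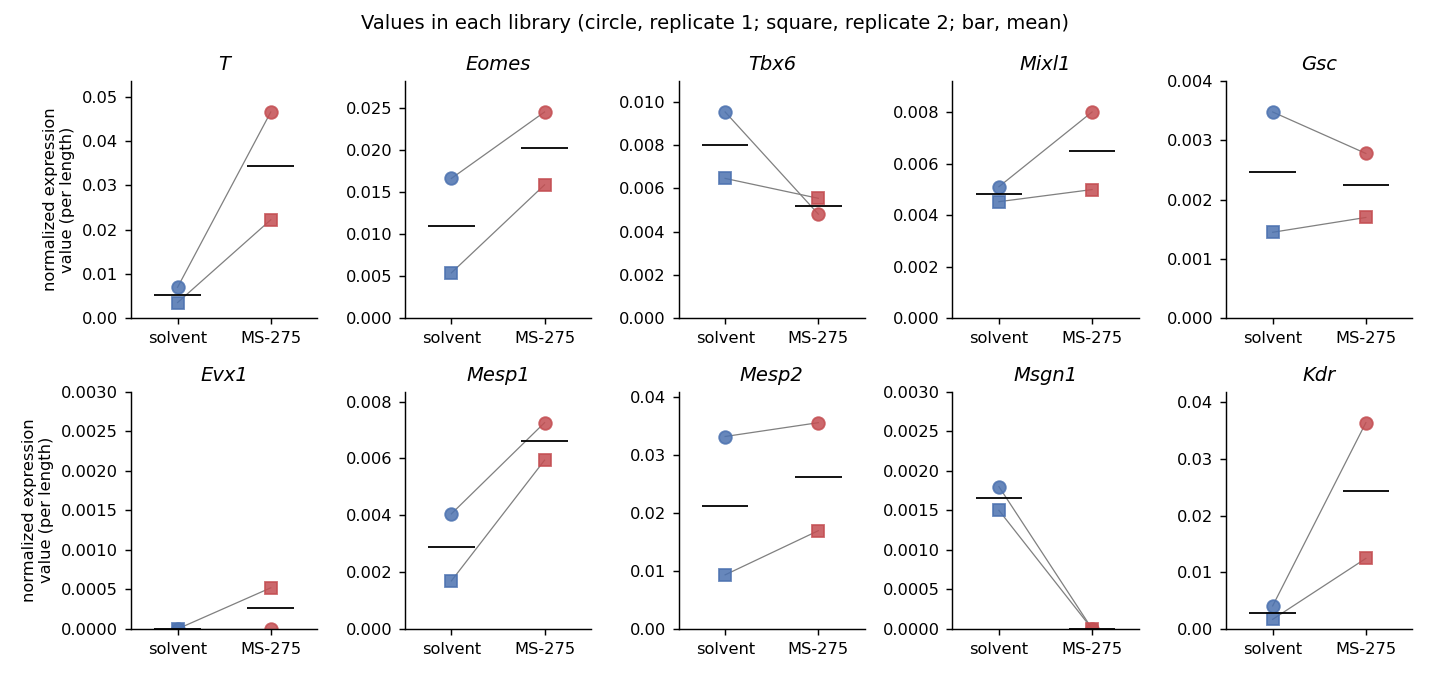
Normalized expression value (y axis, a signal per exon length, different range in each panel) of the 10 regulators in the solvent and MS-275 libraries. Circles are replicate 1, squares replicate 2, black bars the group mean, and grey lines join libraries with the same replicate number. T and Kdr lie far above their solvent values in both MS-275 libraries, while Eomes, Mixl1, Gsc and Mesp2 overlap between the groups.

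T and Kdr were the regulators that rose, so the 250 bases before the start site of each are shown here, as RefSeq lists them for GRCm38.p6 and placed on mm9 by an exact match. Capitals mark the T-box core (ACACCT or its reverse AGGTGT) and the TCF/LEF core through which Wnt signals act (TCAAAG or its reverse CTTTGA). The window of T is chr17:8627038-8627287 on the plus strand, and that of Kdr is chr5:76374481-76374730 on the minus strand.
T: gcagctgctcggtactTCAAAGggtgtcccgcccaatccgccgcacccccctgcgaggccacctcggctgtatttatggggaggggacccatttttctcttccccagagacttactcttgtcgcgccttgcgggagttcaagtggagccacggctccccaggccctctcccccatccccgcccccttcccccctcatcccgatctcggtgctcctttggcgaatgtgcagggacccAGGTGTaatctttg
Kdr: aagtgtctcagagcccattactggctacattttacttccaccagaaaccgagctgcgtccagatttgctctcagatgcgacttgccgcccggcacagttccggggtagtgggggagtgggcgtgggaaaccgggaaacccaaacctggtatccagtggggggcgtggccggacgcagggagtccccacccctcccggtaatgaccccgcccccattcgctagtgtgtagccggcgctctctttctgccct

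The window of T held 1 T-box core, at bases -14 to -9 before the start, and 1 TCF/LEF core at -234 to -229, while that of Kdr held neither. Both held 2 GC boxes (GGGCGG or its reverse CCGCCC). They were rich in CpG, with 14 CpGs in T and 16 in Kdr against a median of 6 over 32851 such windows. These traits were not particular to them, as the window of Gsc, which did not pass, also held 2 GC boxes and had 22 CpGs. The window of Mesp2 held 1 GC box, and the remaining windows held none. Among all windows the T-box core stood in 11.8%, the TCF/LEF core in 13.8% and the GC box in 32.7%. The T-box core was also found before Evx1 and Mesp1, and the TCF/LEF core before Mesp1 and Msgn1, each with 2 copies. No core of either kind was found before Eomes, Tbx6, Gsc or Mesp2, and Mixl1 was not matched in the table, so 9 of the 10 regulators were searched. The windows of Mesp1, Gsc and Kdr lie partly inside the first exon that GENCODE M1 gives these genes. For Kdr this covers only the bases from 76374481 to 76374483. A match describes these letters in this window and is not a binding site.

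T, the founding T-box factor, is needed for mesoderm to leave the streak and for the notochord. The gene lies on mm9 chromosome 17 from 8627288 to 8635361, plus strand, with 8 exons. Its value was 0.00699 and 0.00354 in solvent replicates 1 and 2, and 0.0466 and 0.0222 in MS-275 replicates 1 and 2. Both MS-275 libraries lay above both solvent libraries, and replicate 1 was the higher one in each group. MS-275 over solvent was 6.66 in the first pair and 6.28 in the second. In the order of all listed genes T moved from percentiles 47.1 and 45.6 to 61.1 and 57.1, so it went from just under the middle to somewhat above it.

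Counting alignments on the exons of T gave the depth behind these values. At distinct positions, 14 and 15 alignments fell on its exons in the solvent libraries and 107 and 67 in the MS-275 libraries. Per 10000000 distinct positions in the library, the rate used below, this was 14.3 and 13.7 for the solvent libraries and 98.0 and 73.4 for the MS-275 libraries, and the group means differed 6.13-fold. The exact 95% intervals reached at most 24.0 in the solvent libraries and started at 56.9 or above in the MS-275 libraries, and they cover counting error only. limma-voom on these positions gave a log2 fold change of 2.43 (SE 0.419, adjusted p = 0.00976) without the block and 2.43 (adjusted p = 3.8e-05) with it. This fit, unlike the one on the values, called T and Kdr without the block: 2 of the 6 regulators with enough positions higher and 0 lower, where 12.2% of 16994 genes were higher and 7.94% lower.

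The positions on T were not even along the gene. The last exon makes up 39.1% of the exon length and held 11 of 14 and 13 of 15 positions in the solvent libraries, and 87 of 107 and 47 of 67 in the MS-275 libraries. The other exons held 3 and 2 positions with solvent and 20 and 20 with MS-275, so the last exon and the exons before it were both higher. The introns, 5762 bases in all, held 5 and 0 positions with solvent and 6 and 14 with MS-275. In Eomes and Kdr, too, the last exon held a larger share of positions than of exon length in every library.

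**Figure D2:**
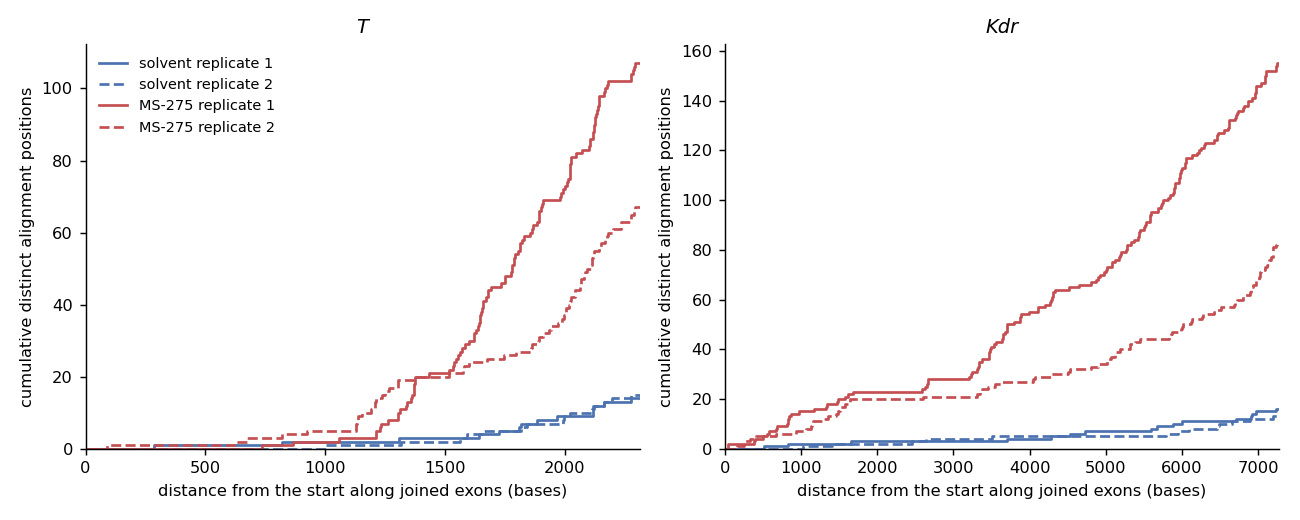
Cumulative number of distinct alignment positions (y axis) along the joined exons of T and Kdr (x axis, bases from the 5′ end) in the 4 libraries, solvent in blue and MS-275 in red, replicate 1 solid and replicate 2 dashed. With MS-275 the curves reach 107 and 67 for T and 155 and 83 for Kdr. In these libraries the last exon of T, 39.1% of its length, holds 81.3% and 70.1% of positions. That of Kdr, 24.6% of its length, holds 43.2% and 47.0%. With solvent the curves stay at or under 16.

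Kdr, the receptor tyrosine kinase for VEGF, also called Flk1, lies on chromosome 5 from 76328852 to 76374483, minus strand, with 29 exons. Its value was 0.00406 and 0.00169 in the solvent libraries and 0.0364 and 0.0124 in the MS-275 libraries. The groups did not overlap, and the lower MS-275 library stood above the higher solvent library. The ratio was 8.96 in the first pair and 7.36 in the second, above that of T in both. Distinct positions on its exons numbered 16 and 13 with solvent and 155 and 83 with MS-275, a rate of 14.1 ± 3.18 for solvent (SD, n = 2) against 116 ± 36.1 for MS-275 (SD, n = 2). limma-voom gave a log2 fold change of 2.87 (SE 0.458, adjusted p = 0.00822) without the block. Positions lay in 8 and 5 of the 29 exons with solvent and in 28 and 22 with MS-275, so the gain ran along the gene and was not that of a single exon.

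Eomes, the T-box factor that acts with Nodal in the anterior streak and in definitive endoderm, lies on chromosome 9 from 118387330 to 118395250. Its value was 0.0166 and 0.00539 with solvent and 0.0245 and 0.0159 with MS-275. The higher solvent library exceeded the lower MS-275 library, so the groups overlapped, although each pair was higher with MS-275 (1.48 and 2.94 times). limma gave a log2 fold change of 0.73, with SE 0.628 and adjusted p = 0.663 without the block and adjusted p = 0.0971 with it. At distinct positions the groups did not overlap, with rates of 60.3 and 38.3 in the solvent libraries and 88.9 and 92.1 in the MS-275 libraries. limma-voom called Eomes higher with the block (log2 fold change 0.74, adjusted p = 0.0345) and did not without it (adjusted p = 0.146). With the block it called 3 of the 6 regulators higher and 0 lower, where 23.7% of genes were higher and 21% lower. The call for Eomes thus needed both the positions and the block.

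Tbx6, the T-box factor that directs cells to paraxial mesoderm and away from a neural fate, was the 1 T-box regulator with a lower mean after MS-275. It lies on chromosome 7 from 133924997 to 133929074. Its value was 0.00953 and 0.00646 with solvent and 0.00481 and 0.00554 with MS-275. Both MS-275 libraries were below both solvent libraries by a small margin, and limma gave a log2 fold change of -0.34 (SE 0.393, adjusted p = 0.776; with the block 0.379). Quantile normalization with the block moved this to -0.81 (limma adjusted p = 0.0328), and median-ratio scaling with the block left it short of the threshold. On distinct positions the groups overlapped, with 17 and 28 against 12 and 19. T and Tbx6 belong to one gene family, and no shared direction was seen between them.

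The homeobox genes were low in every library. Mixl1, a paired-type factor induced by Nodal in the streak, lies on chromosome 1 from 182623174 to 182627165. Its value was 0.00510 and 0.00452 with solvent and 0.00800 and 0.00499 with MS-275, so the lower MS-275 library lay between the solvent libraries. At distinct positions its groups did not overlap, with rates of 9.20 and 13.7 for solvent and 14.7 and 15.3 for MS-275, but limma-voom gave adjusted p = 0.782. Gsc, the organizer factor Goosecoid on chromosome 12 from 105709419 to 105711537, was at 0.00348 and 0.00145 with solvent and at 0.00278 and 0.00170 with MS-275. Its groups overlapped fully, and 4, 4, 1 and 4 distinct positions stood behind these values. limma gave log2 fold changes of 0.22 (SE 0.364, adjusted p = 0.869) for Mixl1 and -0.03 (SE 0.247, adjusted p = 0.980) for Gsc. Mixl1 and Gsc thus did not pass in either direction, but the depth of Gsc could not show a change of modest size. Evx1, which patterns the posterior streak and lies on chromosome 6 from 52263492 to 52268372, was listed at 0 in 3 libraries and at 0.00052 in MS-275 replicate 2. That value rests on 2 distinct positions, under the limit of 3 counts used here as the floor, so no fold is given.

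Mesp1, which opens the cardiac program in nascent mesoderm, and Mesp2, which sets the borders of somites, are neighbours on chromosome 7, at 86937127 to 86938674 on the minus strand and at 86955613 to 86958317 on the plus strand. A stretch of 42 bases is identical in their coding exons, longer than the 35-base alignments, so reads from it could have come from either gene. It is shown in capitals with 30 bases on each side, from mm9 at chr7:86938004-86938105 (Mesp1, minus strand) and chr7:86956132-86956233 (Mesp2, plus strand).
Mesp1: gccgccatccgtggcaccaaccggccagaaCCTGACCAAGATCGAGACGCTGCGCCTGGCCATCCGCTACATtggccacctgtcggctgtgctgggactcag
Mesp2: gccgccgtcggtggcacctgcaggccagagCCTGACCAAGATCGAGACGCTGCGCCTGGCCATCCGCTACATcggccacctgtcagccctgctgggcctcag

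No alignment lay wholly inside the shared stretch in any of the 4 libraries, so the counts of the pair below do not rest on it. The next longest stretch shared by any pair of the regulators was 20 bases, between Eomes and Kdr. Mesp1 had values of 0.00405 and 0.00169 with solvent and of 0.00726 and 0.00594 with MS-275. Both MS-275 libraries were above both solvent libraries, with ratios of 1.79 and 3.51 in the pairs, but the values rest on 2, 2, 8 and 5 distinct positions. limma gave Mesp1 a log2 fold change of 0.57 (SE 0.330, adjusted p = 0.442; with the block 0.104). Mesp2 had values of 0.0332 and 0.00934 with solvent and of 0.0356 and 0.0170 with MS-275. Its groups overlapped, and the 2 solvent libraries differed more from each other than either pair did between treatments. limma gave Mesp2 a log2 fold change of 0.35 (SE 0.718, adjusted p = 0.901).

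Msgn1 (Mesogenin 1), a target of Wnt and Tbx6 in presomitic mesoderm on chromosome 12 from 11215188 to 11215754, was at 0.0018 and 0.0015 with solvent and listed at 0 in both MS-275 libraries. It rests on 1 and 2 distinct positions with solvent and 0 with MS-275, where a count of 0 allows rates of up to 2.75 and 3.29 by the limit of 3 counts, and of up to 3.38 and 4.04 by the exact 95% interval. It entered the fit through its solvent libraries alone, so its values had to differ between the groups, and both groups are at or under the floor. limma gave adjusted p = 0.234 without the block and 0.133 with it, and no fold is given.

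**Figure D3:**
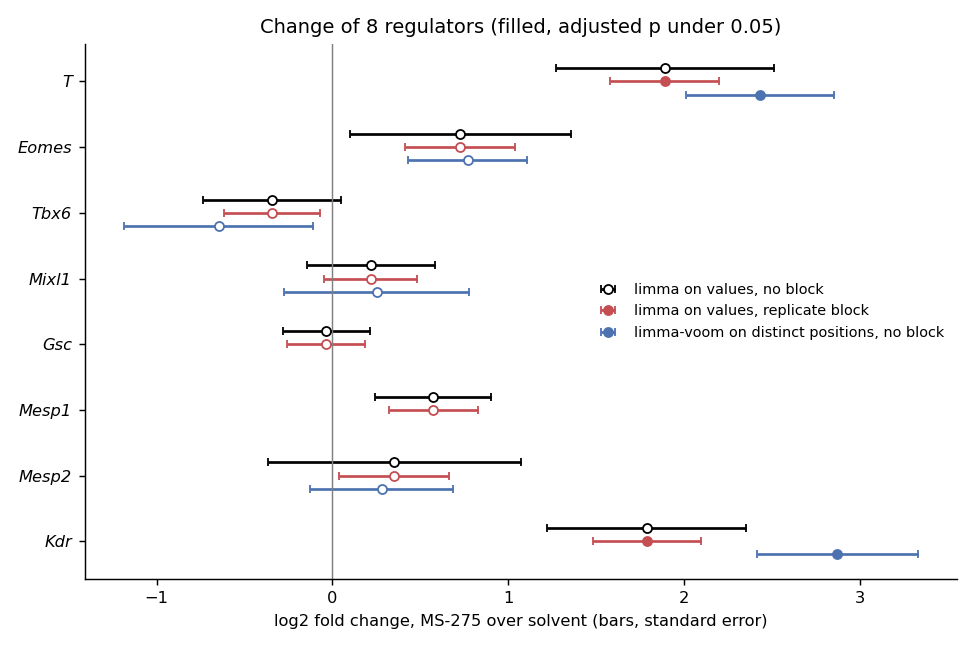
log2 fold change of MS-275 over solvent (x axis) for 8 of the regulators, with standard errors as bars, from limma on the values without the block (black), with the replicate block (red) and from limma-voom on distinct positions without the block (blue). Filled points have an adjusted p under 0.05. Only T and Kdr have filled points, Evx1 and Msgn1 are left out, and Gsc and Mesp1 had too few positions for limma-voom.

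Since the values are per exon length, the regulators can be ordered by level. In the solvent libraries the highest mean value was that of Mesp2 (0.0213), followed by Eomes (0.0110), Tbx6 (0.00800), T (0.00527), Mixl1 (0.00481), Kdr (0.00288), Mesp1 (0.00287), Gsc (0.00247), Msgn1 (0.00165) and Evx1 (0). Neighbours in this order overlapped between libraries except Mixl1 and Kdr, and Msgn1 and Evx1. In the MS-275 libraries T was highest (0.0344), followed by Mesp2 (0.0263), Kdr (0.0244), Eomes (0.0202), Mesp1 (0.00660), Mixl1 (0.00650), Tbx6 (0.00518), Gsc (0.00224), Evx1 (0.00026) and Msgn1 (0). The first 4 overlapped one another and were separated from the rest, as were Tbx6 from Gsc and Gsc from Evx1. These levels were low throughout, as Pou5f1 (Oct4), the ESC transcription factor, had values from 0.575 to 2.33 in the same libraries. In RNA from a whole culture, a change in the number of cells that express a gene cannot be told apart from a change in RNA per cell.

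The T-box family was examined beyond its 3 streak members. Of the 14 other T-box genes, 10 passed the filter, and limma with the block called 4 higher (Tbx21, Tbx20, Tbx4 and Tbx5) and 1 lower (Tbx3), where 21% of all genes were higher and 6.46% lower, with a median log2 fold change of 0.53. Without the block limma called 0 of the 84 genes tested in the T-box, signal, streak, mesoderm, blood and VEGF lists described from here on. Tbx21, which directs helper T cells, had the largest gain, from 0.00104 and 0.000690 to 0.0270 and 0.0203 (log2 fold change 2.28, adjusted p = 3.7e-05). Tbx20, a cardiac factor, went from 0.00256 and 0.000790 to 0.0166 and 0.00782 (1.33, adjusted p = 0.00157). Tbx3, a factor expressed in ESCs themselves, fell from 0.435 and 0.790 to 0.245 and 0.194 (-1.41, adjusted p = 0.00137). T was thus 1 of 5 T-box genes of the 13 tested that rose with the block, and the others that rose are known from lymphocytes, heart and limb rather than from the streak. The 4 that did not pass the filter were Tbx10, Tbx19, Tbx22 and Tbr1. With the block, median-ratio scaling gave 4 of the 10 higher and 2 lower, against 16.6% and 14.1% of all genes. Quantile normalization with the block gave 2 and 2, against 14.4% and 14.6%.

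**Figure D4:**
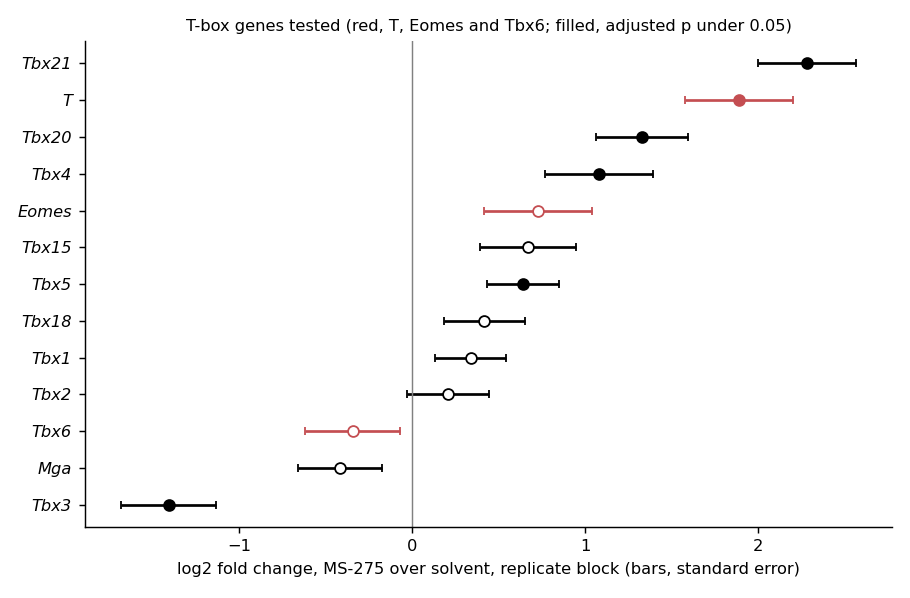
log2 fold change of MS-275 over solvent (x axis) with standard error for the 13 T-box genes tested, from limma with the replicate block. Red points are T, Eomes and Tbx6, black points the other T-box genes, and filled points have an adjusted p under 0.05. T and 4 others are filled on the right, Tbx3 is filled on the left, and Eomes and Tbx6 are open.

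The signals that induce the streak moved in both directions. Of 14 ligands, cofactors and antagonists tested, limma with the block called 5 higher (Wnt8a, Dkk1, Fgf8, Wnt3 and Wnt3a) and 5 lower (Gdf3, Lefty2, Lefty1, Fgf4 and Foxh1), against 21% and 6.46% of all genes. All 5 of each are named because the counts are small, after their values were seen. Wnt8a, a ligand of the posterior streak, went from 0 and 0.00421 to 0.0278 and 0.0281 (log2 fold change 2.28, adjusted p = 8.1e-05). Dkk1, a Wnt antagonist and Wnt target, went from 0.00313 and 0.00163 to 0.0252 and 0.0168 (1.81, adjusted p = 0.000278). Gdf3, a Nodal-related ligand, fell from 0.387 and 0.565 to 0.0375 and 0.00782 (-4.34, adjusted p = 1.71e-06), and Lefty2, a Nodal antagonist and target, from 0.179 and 0.245 to 0.0212 and 0.0158 (-3.20, adjusted p = 1.71e-06). Nodal itself, named after its values were seen, did not pass, with 0.239 and 0.227 against 0.272 and 0.169 (adjusted p = 0.745). The median log2 fold change of the 14 was -0.17, and it was 0.11, 0.032 and 0.22 without solvent replicate 1, solvent replicate 2 and MS-275 replicate 2. Without the block limma gave adjusted p = 0.0581 for both Gdf3 and Lefty2. With the block, median-ratio scaling gave 5 of the 14 higher and 6 lower, against 16.6% and 14.1% of all genes. Quantile normalization with the block also gave 5 and 6, against 14.4% and 14.6%.

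Among other genes of the streak, limma with the block called 7 of 13 higher and 1 lower, against 21% and 6.46% of all genes, with a median log2 fold change of 0.94. Hoxb1 and Cdx2, named for this limit, are among the 7 and passed the filter through the MS-275 libraries alone. Their solvent values were under 0.001, so their direction was fixed in advance. The same holds for any gene, in this list or another, that passed through 1 group alone. Snai1 (Snail), the repressor that drives cells out of the epithelium, rose from 0.00836 and 0.00697 to 0.134 and 0.102 (log2 fold change 3.27, adjusted p = 2.37e-06), and Cdx1, a posterior homeobox gene, from 0.0214 and 0.00963 to 0.184 and 0.120 (2.96, adjusted p = 2.68e-06). Both log2 fold changes were above that of T, and without the block limma gave adjusted p = 0.0581 for Snai1 and 0.0587 for Cdx1. Fgf17, a streak Fgf, fell from 0.119 and 0.121 to 0.00930 and 0.00415 (-3.45, adjusted p = 2.23e-06). So the streak genes outside the 10 regulators also held members that rose and a member that fell. With the block, median-ratio scaling gave 7 of these 13 higher and 1 lower, against 16.6% and 14.1% of all genes. Quantile normalization with the block gave 5 and 2, against 14.4% and 14.6%.

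For the mesoderm that follows the streak, limma with the block called 7 of 16 paraxial and somite genes higher and 1 lower (median log2 fold change 0.66), against 21% and 6.46% of all genes. Aldh1a2, the retinoic acid enzyme of the trunk mesoderm, rose by 3.03 (adjusted p = 2.38e-06) and Hes7, the segmentation clock repressor, by 1.98 (adjusted p = 0.000184), while Ripply1, which represses Tbx6 activity in somites, fell by 2.38 (adjusted p = 6.53e-05). Hes7 and Ripply1 lie in the same pathway as Tbx6, Mesp2 and Msgn1, which did not pass. After quantile normalization with the block 6 of the 16 were higher and 1 lower, against 14.4% and 14.6% of all genes. Of the 12 lateral and cardiac genes tested, limma with the block called 6 higher and 0 lower (median 0.56). They were led by Isl1, a heart field factor (1.90, adjusted p = 0.000234), and Tbx20. After quantile normalization with the block 3 were higher and 0 lower, against 14.4% and 14.6% of all genes. Mesp1, which acts upstream of this program in the embryo, did not pass.

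The surroundings of Kdr were mixed. Of 15 blood and endothelial genes, limma with the block called 7 higher and 1 lower (median 0.48), against 21% and 6.46% of all genes. After quantile normalization with the block it called 3 higher and 3 lower (median -0.047), against 14.4% and 14.6% of all genes. Erg, an endothelial and blood Ets factor, went from 0.00225 and 0.00153 to 0.0395 and 0.0227 (2.35, adjusted p = 5e-05), and Gata1, the erythroid factor, rose by 2.02 (adjusted p = 0.000145). Pecam1 (CD31), an endothelial adhesion molecule that ESCs also express, fell from 0.529 and 0.567 to 0.331 and 0.0962 (-1.58, adjusted p = 0.00188), and Emcn (endomucin) was listed at 0 in all 4 libraries. The summed level of the 16 listed genes was 0.673 and 0.640 with solvent and 0.666 and 0.293 with MS-275, so it did not follow Kdr, and Pecam1 made up most of it in the solvent libraries. Of the 8 ligands and other receptors of the VEGF system, 2 rose, Flt4 (the lymphatic receptor VEGFR3, 1.75, adjusted p = 0.000636) and Pgf (placental growth factor, 1.26, adjusted p = 0.00526), and 1 fell, the Flt4 ligand Vegfc (-2.16, adjusted p = 0.000119). With the block, median-ratio scaling gave 2 of the 8 higher and 3 lower, against 16.6% and 14.1% of all genes. Quantile normalization with the block gave 1 and 2, against 14.4% and 14.6%.

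**Figure D5:**
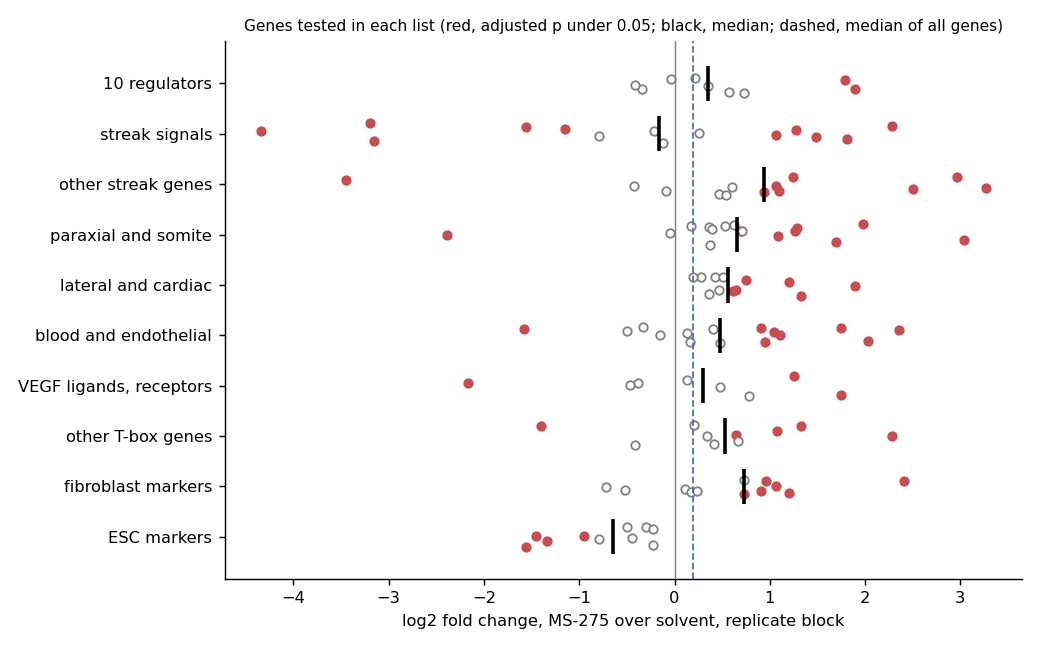
log2 fold change of MS-275 over solvent (x axis, limma with the replicate block) of each gene tested in 10 lists. Red points have an adjusted p under 0.05, black bars are list medians and the dashed line is the median of all genes tested, 0.20. The 10 regulators have 2 red points, T and Kdr, and the streak signals run from -4.34 to 2.28.

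Markers of the cells in the culture were read in the same libraries. Of 10 ESC markers, limma with the block called 0 higher and 4 lower, against 21% and 6.46% of all genes. Fgf4 (-1.56, adjusted p = 0.000337) and Utf1 (-1.45, adjusted p = 0.00402) were lowest, and all 10 stayed above 0 in each library. TBV2 is a feeder-dependent line, and the sources used here do not say whether feeder fibroblasts were in the cultures of these libraries. Of 12 fibroblast markers, limma with the block called 6 higher and 0 lower, against 21% and 6.46% of all genes. They were led by Col1a1 (2.41, adjusted p = 5.6e-05) and Pdgfrb (1.20, adjusted p = 0.00704). With the block, median-ratio scaling gave 4 fibroblast markers higher and 1 lower, quantile normalization 3 and 2, and limma-voom 6 and 2. For the ESC markers these fits gave 0 higher and 6 lower, 0 and 5, and 0 and 7. The shares of all genes in these fits were 16.6% and 14.1%, 14.4% and 14.6%, and 23.7% and 21%. The fibroblast sum was 0.764 and 1.17 with solvent and 1.12 and 1.76 with MS-275, higher in each pair although the groups overlapped, and no marker was at 0 in any library. It moved in the same direction as T and Kdr, and its part in the result was not tested. Without the block, limma called none of the genes in these marker lists.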

How the data were processed

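RNA was poly(A)-selected, and 36-base reads had been mapped to mm9. The authors deposited normalized expression values made with Genomatix, a signal per gene that scales with alignments divided by exon length and total alignments. They also deposited the alignments, whose positions were counted once each on exons of GENCODE M1. Deposited tables of ratios hold the authors' own comparison and were not used.

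Genes at 0.001 or more in 2 libraries were fitted with limma 3.58.1 (R 4.3.3; lmFit, eBayes with a trend) on log2(value + 0.005), which understates changes of low genes, with Benjamini-Hochberg adjustment over 20336 genes. The study states no test. The replicate block was an alternative: column headers call replicate 1 of both groups old, and deviations from group means correlated at 0.764 between same-numbered libraries over 20336 genes. Replicate number also coincides with repeated alignments, 0% behind both replicate 1 values and 53.2% and 54.4% behind the replicate 2 values. A pairing of cultures or batches therefore cannot be told apart from this difference in the alignments. limma-voom used distinct positions, for genes with at least 10 in 2 libraries. Strand was ignored, as no source states stranded libraries. Python 3.11.15 with pandas 2.3.3, numpy 2.4.6, scipy 1.17.1 and matplotlib 3.10.9 did the counting and plots. The fits were tested on simulated data.

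The 10 regulators and the 9 other lists were chosen with earlier results of these data known. Of 121 list entries, 119 matched by symbol, 1 by Entrez identifier, and 1 was not listed. The genes named are all regulators and T-box genes, and the 2 largest rises and falls past the threshold with the block in each list, except where said. Alternatives were pseudocounts, filters, scalings, eBayes without a trend, the block, distinct positions, other fold rules and each library left out.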

Additional observations from a re-analysis of the deposited data

How the results depend on the processing

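limma without the block called 1 gene higher and 0 lower with 2 libraries a group, and the cause of the larger counts below, some of them also without the block, was not tested. Depth limits Gsc, Mesp1, Evx1 and Msgn1, each with 8 or fewer positions in a library.

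Genes called higher numbered 0 with a pseudocount of 0.001 or 0.02, without a filter, after quantile normalization or median-ratio scaling, and without a trend. They numbered 466 with a mean value of at least 0.01, 4277 with the replicate block, and with the block 3379 after median-ratio scaling, 2936 after quantile normalization, and 4216 and 3790 with pseudocounts of 0.001 and 0.02. They numbered 2078 on distinct positions with limma-voom and 4034 when the block was added. Genes called lower were 65 with the mean filter, 1314 with the block, 2864 and 2961 with the block and median-ratio or quantile scaling, 1220 and 1158 with the block and pseudocounts of 0.001 and 0.02, and 1349 and 3574 with limma-voom without and with the block. Without 1 library in turn, an alternative chosen after seeing the data, higher calls ran from 0 (without either MS-275 library) to 160 (without solvent replicate 1; 76 without solvent replicate 2), and lower calls from 0 to 29 (25 without solvent replicate 2). In such fits the lone library is assumed to vary like the other group.

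Regulators called higher numbered 2 (T and Kdr) in each fit with the block on the values, 2 with limma-voom, 3 with limma-voom and the block, 0 on the values and 2 on distinct positions without each library in turn. Regulators called lower numbered 2 (Tbx6 and Msgn1) with the block and quantile normalization and 1 (Msgn1) with the block and a pseudocount of 0.001. The direction of Msgn1 was fixed in advance, as it passed the filter through its solvent libraries alone. The 84 genes tested in the pathway lists had 0 calls, 14 with the mean filter and 45 with the block. With the block they had 47 after median-ratio scaling, 39 after quantile normalization, and 46 and 40 with pseudocounts of 0.001 and 0.02. With limma-voom they had 31 without the block and 50 with it. Without 1 library they had 0 to 6 on the values (6 without solvent replicate 1 and 2 without solvent replicate 2). On positions without 1 library they had 29 to 37. With libraries numbered in the order of the values, the counts on positions were 30 and 35 without solvent replicates 1 and 2. Regulators at least 2-fold higher numbered 1 (T) when values under 0.01 were set to 0.01, and 2 to 4 without 1 library (4 without solvent replicate 1 or MS-275 replicate 1). A minimum of 1.5-fold put 3 regulators higher (T, Kdr and Mesp1) and 1 lower, Msgn1, whose values are at or under the floor. The solvent values of Mesp1 rest on 2 positions each, also under the floor.

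Single log2 fold changes that turned direction had not passed. Libraries left out are numbered here in the order of the values. Mixl1 was at -0.29 after quantile normalization with or without the block, and at -0.043 with limma-voom without solvent replicate 1. Gsc was at 0.16 without solvent replicate 1 and 0.07 without MS-275 replicate 2 (range -0.23 to 0.16 without 1 library). Mesp2 was at -0.11 after quantile normalization with or without the block. On the values Mesp2 was at -0.36 without solvent replicate 2 and -0.09 without MS-275 replicate 1 (range -0.36 to 1.06 without 1 library). With limma-voom Mesp2 was at -0.14 without solvent replicate 2. T stayed between 1.07 and 2.62 and Kdr between 0.90 and 3.16 over 22 alternatives each. List medians turned too: streak signals (-0.17) to 0.11, 0.032 and 0.22 without solvent replicate 1, solvent replicate 2 and MS-275 replicate 2, ESC markers (-0.65) to 0.20 without solvent replicate 2, and, after quantile normalization with or without the block, blood and endothelial genes (0.48) to -0.047 and VEGF genes (0.30) to -0.0042. The other 5 list medians kept their sign under all alternatives run.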
